A study of Mus musculus with 24 samples.

Results

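Mitochondria are renewed by fusing, dividing, being degraded and being built anew, and 10 genes of this machinery were followed here in mouse brain microvessels after stroke. They were found by exact match of their symbols in the deposited table of 17270 genes, and each was present once: Pink1, Optn, Sqstm1 and Fundc1 for mitophagy, Mfn1, Mfn2 and Opa1 for fusion, Dnm1l and Fis1 for fission, and Ppargc1a for biogenesis. All 10 had a mean above 5 normalized counts and entered the test, with 15982 genes tested in total.

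Damaged mitochondria that lose their membrane potential accumulate the kinase PINK1 on their surface, which recruits the ubiquitin ligase Parkin, and the ubiquitin chains are then read by adaptors such as optineurin and p62 that link the organelle to the autophagosome. Receptors such as FUNDC1 sit in the outer membrane and bind the autophagosome directly, without ubiquitin. Brain endothelial cells form the blood-brain barrier, and mitochondrial quality control has been studied there as part of the response to ischemia and reperfusion.

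The animals were male C57BL/6J mice, 10 to 12 weeks old, with no transgene. They underwent 60 min of transient middle cerebral artery occlusion (tMCAO) with a filament or sham surgery, in which the filament was withdrawn at once. Microvessels of the ipsilateral hemisphere, on the side of the filament, and of the contralateral hemisphere were isolated at 24 h or 7 days, which gave 8 groups of 3 libraries. Vessels of 3 hemispheres were pooled for a library, so the spread between libraries is a spread between pools, and whole hemispheres were used, with infarcted and intact tissue mixed. The study left samples out as outliers before deposit, which were not analysed here.

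Depth was estimated at 13693168 to 20029096 reads per library. All 10 endothelial markers were present in every library, the lowest being Tek at a mean of 11900 normalized counts. The vessels also carried transcripts of other cells. Of 10 neuron markers, 7 fell at 24 h and all 10 fell at 7 days in tMCAO against sham ipsilateral libraries, with median log2 fold changes of -1.36 and -2.90. All 8 tested neutrophil and monocyte markers rose at 24 h, with a median of 3.02, and 2 rose at 7 days. In bulk RNA, fewer cells of a type and less RNA per cell cannot be told apart.

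Promoters of 3 members are shown because these genes mark both ends of the expression range and include the genes regulated after stroke. The windows run from 250 bases before to 50 after a RefSeq transcript start (GRCm38.p6, the build of the deposited coordinates). They are Pink1, chr4:138326247-138326546, Sqstm1, chr11:50210771-50211070, and Ppargc1a, chr5:51567676-51567975, all on the minus strand and printed 5′ to 3′ as transcribed. Capitals mark the GC box GGGCGG in Pink1 and Sqstm1 (CCGCCC on the other strand), the TATA box TATAAA in Sqstm1, and the short CRE core TGACGT, or its complement, in Ppargc1a.
Pink1: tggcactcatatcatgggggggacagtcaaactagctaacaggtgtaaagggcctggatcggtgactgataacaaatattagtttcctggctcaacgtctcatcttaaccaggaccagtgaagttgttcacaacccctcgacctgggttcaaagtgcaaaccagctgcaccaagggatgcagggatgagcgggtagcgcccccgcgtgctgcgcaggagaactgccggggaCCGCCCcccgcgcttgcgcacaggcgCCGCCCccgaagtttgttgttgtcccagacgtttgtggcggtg
Sqstm1: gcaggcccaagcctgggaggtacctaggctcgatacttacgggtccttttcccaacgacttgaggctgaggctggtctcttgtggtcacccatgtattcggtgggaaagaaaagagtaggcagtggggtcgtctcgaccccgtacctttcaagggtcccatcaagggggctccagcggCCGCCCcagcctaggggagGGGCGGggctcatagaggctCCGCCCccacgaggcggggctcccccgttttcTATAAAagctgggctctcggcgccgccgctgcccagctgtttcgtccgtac
Ppargc1a: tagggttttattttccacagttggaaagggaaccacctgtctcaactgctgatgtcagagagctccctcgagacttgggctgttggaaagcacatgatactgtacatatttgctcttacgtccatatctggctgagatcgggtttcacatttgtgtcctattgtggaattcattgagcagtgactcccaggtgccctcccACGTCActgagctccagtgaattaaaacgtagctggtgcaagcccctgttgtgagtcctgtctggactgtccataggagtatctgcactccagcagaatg
The Ppargc1a window belongs to a start 13803 bases upstream of the gene start in the deposited annotation.

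GC boxes were common among the members. Of the 14 windows of the members, 10 held GGGCGG on either strand, beside 35.6% of 32817 RefSeq windows, and in both sets several windows can belong to the same gene. These 10 windows belonged to 8 genes, all members except Fundc1 and Ppargc1a. A Fis1 window with 4 GC boxes belongs to a start far inside the deposited gene. A Dnm1l window and the Fundc1 window belong to starts a shorter way inside their genes. The RefSeq windows were not limited to genes expressed here. Of the members only Sqstm1 held TATAAA (13.6% of all windows), only Opa1 held the Nrf1 core GCATGCGC (2.71%), and Mfn2 and Ppargc1a held the short CRE core (7.51%). None of the 14 windows of the members held the full CRE TGACGTCA (1.79%), the antioxidant element TGACNNNGC (12.4%) or the E-box CACGTG (7.15%), each searched on both strands. The short core lies inside the full CRE. These are matches of letters and not binding sites, and the GC box, TATA box and short CRE core were added to the search after the sequences had been seen.

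Levels of the members in the 18 control libraries, which are all libraries except the ipsilateral ones after tMCAO, differed widely per kilobase of exon. Sqstm1, which encodes the adaptor p62, and Pink1 led with 2462 and 2454 normalized counts per kb. Fis1, an outer membrane protein of the fission machinery, followed with 1336. Between Sqstm1 and Pink1 the difference was smaller than the spread, since their coefficients of variation were 9.98% and 10.4%.
Mfn2 stood at 431.5 normalized counts per kb, Dnm1l at 265.4, Fundc1 at 243.3 and Mfn1 at 197.7. Opa1 had 126 and Optn 91.18. Ppargc1a was lowest with 10.27, far below the other members. Dnm1l and Fundc1, with coefficients of variation of 10.7% and 10.9%, did not differ beyond their spread either. Opa1 was the steadiest member with a coefficient of variation of 5.29%, and Ppargc1a, the least abundant, the most variable with 33.5%.

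**Figure D1:**
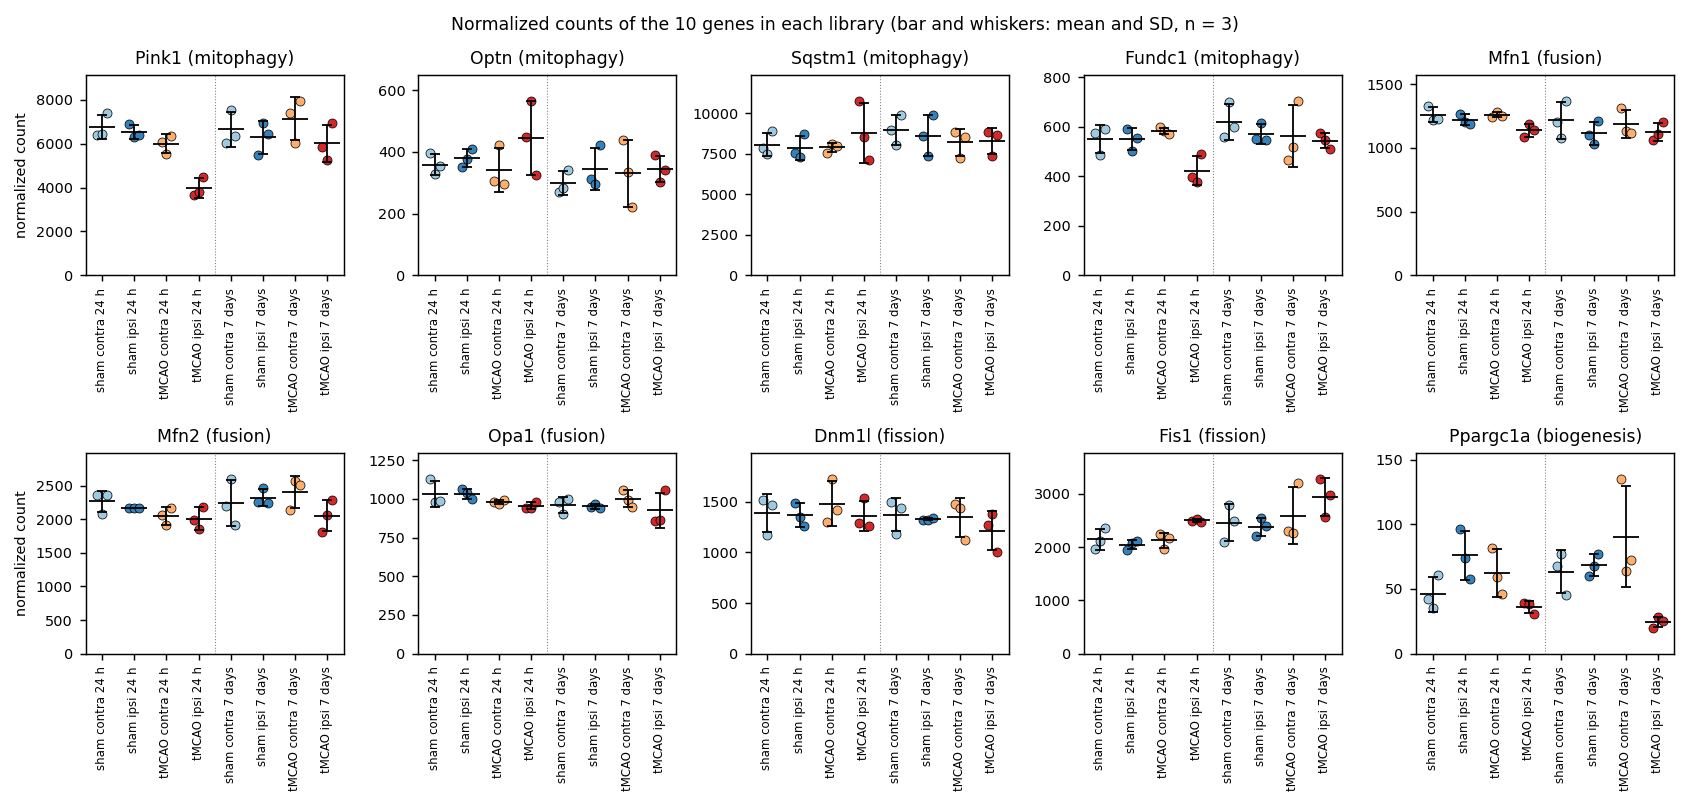
Normalized counts (linear axes from 0) of the 10 genes in the 24 libraries, by group. Points are libraries, the horizontal bar is the mean and the whiskers are the SD of 3 libraries. Pink1 is lowest in the 3 ipsilateral libraries 24 h after tMCAO, at 3664 to 4487, and Ppargc1a in those at 7 days, at 20 to 28.

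The first question was which of these genes differed in the vessels of the stroke hemisphere from sham vessels at 24 h. Pink1 and Ppargc1a fell, no member rose, and the remaining 8 were not called regulated. Calls of regulation required an adjusted p under 0.05 (limma, Benjamini-Hochberg over all tested genes) and an absolute log2 fold change above 0.585, which is 1.5-fold. Among all tested genes 10% were called higher and 8.23% lower, so 0 of 10 and 2 of 10 members stand beside these shares. The median log2 fold change was -0.11 over the members and -0.02 over all genes. Libraries of both groups did not overlap for 5 members, against 49% of all genes.

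Pink1, the kinase that starts ubiquitin-dependent mitophagy (chr4:138313409-138326307, minus strand), had 6908, 6318 and 6413 normalized counts in sham ipsilateral libraries and 3664, 3782 and 4487 in tMCAO ipsilateral libraries at 24 h. All 3 stroke libraries lay below every other library of the series. The log2 fold change was -0.72 ± 0.13 (SE, n = 3 per group; 95% interval -0.99 to -0.45), by which the level fell by 39.4%, with an adjusted p of 0.000387 (limma). It was called regulated under all 14 alternatives of processing, with log2 fold changes from -0.81 to -0.59.

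Ppargc1a, the coactivator PGC-1α that drives mitochondrial biogenesis (chr5:51454250-51553922, minus strand), had 96, 74 and 58 normalized counts in sham and 39, 38 and 31 in tMCAO ipsilateral libraries at 24 h. The groups did not overlap, but the sham libraries themselves were spread widely. Its log2 fold change was -1.03 ± 0.29 (adjusted p 0.0119, limma). The call was lost without sham ipsilateral replicate 1 at 24 h (-0.85, adjusted p 0.0685, limma) and after correcting for the length and GC content of transcripts (-0.76, adjusted p 0.0627, limma).

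Fundc1, the ubiquitin-independent receptor (chrX:17556564-17572325, minus strand), had 591, 503 and 554 normalized counts in sham and 399, 378 and 489 in tMCAO ipsilateral libraries at 24 h. All stroke libraries were below all sham libraries. The log2 fold change of -0.39 ± 0.13 had an adjusted p of 0.0341 (limma) but did not reach the limit on the fold change, and with centring on the endothelial markers the adjusted p was 0.237 (limma). Thus 3 of 10 members passed the p-value threshold, beside 30.6% of all tested genes, and 2 of 10 both criteria.

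The cargo adaptors were not called. Sqstm1 had 7571, 7304 and 8699 normalized counts in sham and 10765, 8525 and 7088 in tMCAO ipsilateral libraries at 24 h. The highest and the lowest library of the series for this gene were both in the stroke group. The log2 fold change was 0.15 ± 0.14 (adjusted p 0.46, limma), and it was -0.01 without tMCAO ipsilateral replicate 1. Optn, encoding optineurin, ranged from 351 to 411 in sham and from 326 to 566 in tMCAO libraries, with a log2 fold change of 0.20 ± 0.22 (adjusted p 0.51, limma).

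The fusion genes kept within narrow ranges. Mfn1 and Mfn2 encode the mitofusins that join outer membranes, and Opa1 the GTPase that joins inner membranes. At 24 h their log2 fold changes were -0.10, -0.11 and -0.11, with adjusted p of 0.411, 0.456 and 0.31 (limma). The 95% intervals reached from -0.29 to 0.09 for Mfn1, from -0.34 to 0.12 for Mfn2 and from -0.28 to 0.06 for Opa1, so that a 1.5-fold change in either direction lay outside each of them. Under centring on the endothelial markers these 3 values turned positive, at 0.03, 0.02 and 0.02. Opa1 had 1061, 1036 and 1000 normalized counts in sham and 944, 939 and 982 in tMCAO libraries, without overlap.

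Of the fission genes, Dnm1l, encoding the dynamin-related GTPase that constricts mitochondria, had a log2 fold change of -0.01 ± 0.14 at 24 h (95% interval -0.31 to 0.29). Fis1 had 1947, 2077 and 2111 normalized counts in sham and 2493, 2530 and 2474 in tMCAO ipsilateral libraries. The groups did not overlap and the stroke libraries were close together. The log2 fold change of 0.29 ± 0.13 did not pass (adjusted p 0.0863, limma).
Fis1 has a short transcript of 948 bases, and its level moved with a property of the libraries. In each library the deviations of all genes were correlated with transcript length (Spearman), which gave -0.24 to -0.21 in the tMCAO and 0.17 to 0.38 in the sham ipsilateral libraries at 24 h. Over the 24 libraries, which share groups and preparation, the log2 level of Fis1 correlated with this trend at r = -0.83 (Pearson, a description). After correction for length and GC content its log2 fold change was -0.07 at 24 h (adjusted p 0.627, limma) and 0.07 at 7 days. The trend did not overlap between tMCAO and sham ipsilateral libraries at 7 days either (-0.29 to -0.14 and -0.06 to 0.03). A change of Fis1 with stroke and one with this trend therefore cannot be told apart, and the correction may remove either. Among the other members r with the trend ranged from -0.36 for Sqstm1 to 0.65 for Opa1, with 0.52 for Ppargc1a and 0.41 for Pink1.

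**Figure D2:**
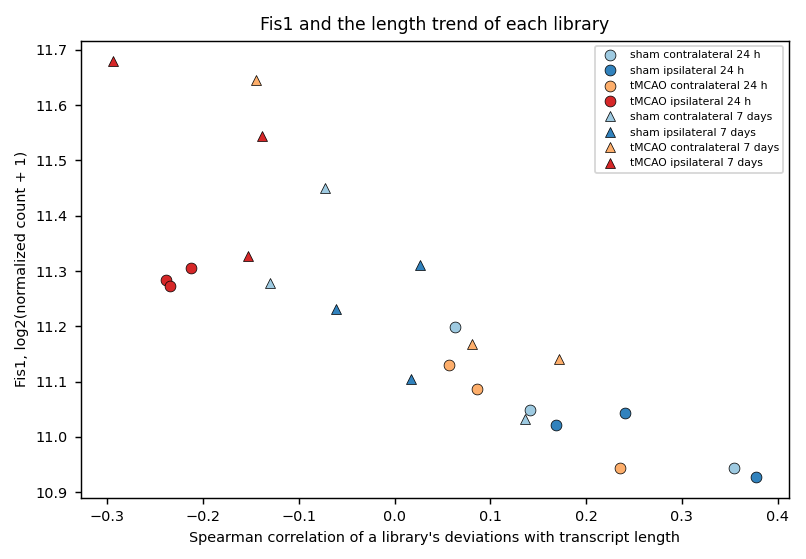
Log2(normalized count + 1) of Fis1 in each of the 24 libraries (vertical) against the Spearman correlation of that library's gene deviations with transcript length (horizontal). Circles are 24 h, triangles 7 days, and colours the surgery and hemisphere; the ipsilateral libraries after tMCAO lie at the left, where Fis1 is high.

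At 7 days the second comparison asked what remained of the difference from sham vessels. Ppargc1a fell and the other 9 members were not called. Over all tested genes 3.27% were called higher and 9.95% lower, beside 0 of 10 and 1 of 10 members, and 30% of genes had groups without overlap, beside 2 of 10 members. The median log2 fold change was -0.06 over the members and 0.03 over all genes.

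Ppargc1a had 60, 68 and 77 normalized counts in sham and 20, 28 and 25 in tMCAO ipsilateral libraries at 7 days. No other library of the series was as low as these 3. The log2 fold change was -1.46 ± 0.29 (95% interval -2.07 to -0.85, adjusted p 0.00146, limma), and it was called under all 14 alternatives, from -1.63 to -1.33. Its stroke effect at 7 days minus that at 24 h was -0.42 ± 0.41 (adjusted p 0.55, limma), so a deeper decrease at 7 days was not shown.

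Pink1 had 5470, 6933 and 6444 normalized counts in sham and 5847, 5266 and 6944 in tMCAO ipsilateral libraries at 7 days. The groups overlapped, and the log2 fold change was -0.06 ± 0.13 (95% interval -0.33 to 0.21, adjusted p 0.793, limma). Fundc1 gave -0.07, Sqstm1 -0.05, Optn 0.02, Mfn1 0.01, Mfn2 -0.18, Opa1 -0.05 and Dnm1l -0.14, none past the threshold. Fis1 was at 2201, 2540 and 2404 in sham and 3277, 2568 and 2985 in tMCAO libraries, with a log2 fold change of 0.30 ± 0.13 (adjusted p 0.113, limma).

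**Figure D3:**
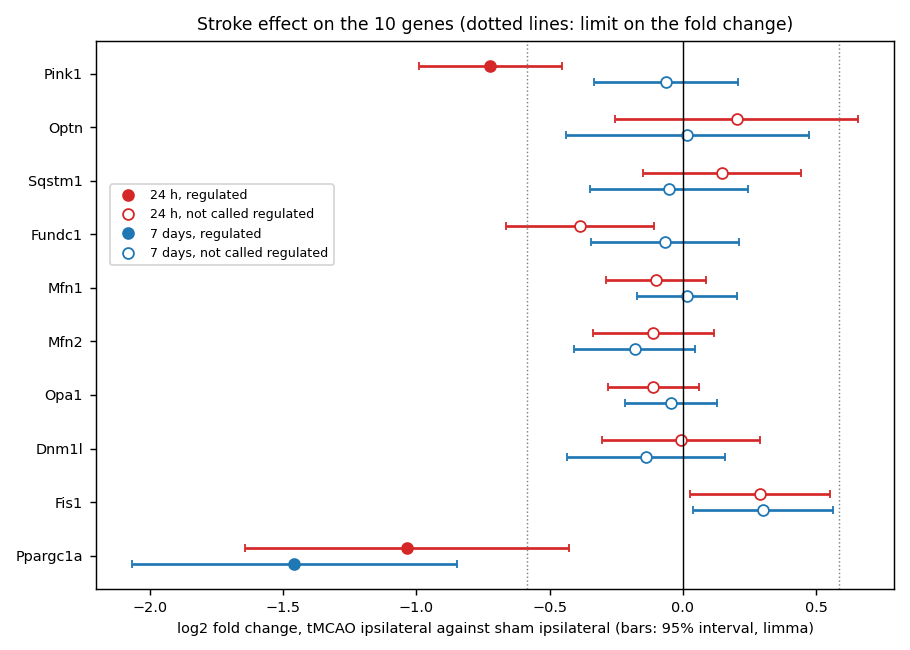
Log2 fold change of each gene in tMCAO against sham ipsilateral libraries at 24 h (red) and 7 days (blue), with 95% intervals from limma. Filled points are genes called regulated, open points are not, and dotted lines are the limit of 0.585 in either direction; Pink1 is filled at 24 h and Ppargc1a at both times.

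Pink1 was the member whose stroke effect differed between the time points. The difference of the log2 fold changes, 7 days minus 24 h, was 0.66 ± 0.18 (95% interval 0.28 to 1.04, adjusted p 0.0266, limma). The test uses the same libraries as the comparisons at each time. It was 1 of 10 members called in this test, beside 8.12% of all genes. The call held in 14 of 20 alternatives. It was lost with centring on the endothelial markers (0.35, adjusted p 0.259, limma) and without any 1 of 5 libraries: sham ipsilateral replicate 1 at 24 h (0.62), sham ipsilateral replicate 1 at 7 days (0.56), tMCAO ipsilateral replicates 1 (0.60) and 2 (0.63) at 24 h, and tMCAO ipsilateral replicate 3 at 7 days (0.55).
Within the stroke hemisphere, Pink1 rose from 24 h to 7 days by a log2 fold change of 0.59 ± 0.13 (adjusted p 0.00338, limma), the only member called, beside 12.2% of all genes. This lay just above the limit on the fold change, and the call was lost in 4 of 14 alternatives. These were endothelial centring (0.25) and leaving out tMCAO ipsilateral replicate 1 (0.54) or 2 (0.56) at 24 h or replicate 3 at 7 days (0.49). Under endothelial centring Optn (-0.69) and Ppargc1a (-0.90) were called instead. Fundc1 moved the same way, by 0.37 ± 0.13, with an adjusted p of 0.0552 (limma).

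Ipsilateral vessels were also compared with contralateral vessels after tMCAO. These comparisons use the same ipsilateral libraries as those against sham and are not separate evidence. At 24 h Pink1 had 6082, 5515 and 6363 normalized counts in contralateral libraries, all above the ipsilateral ones, and its log2 fold change was -0.59 ± 0.13 (adjusted p 0.00237, limma). It was the only member called, beside 13.6% of all genes.
The call was lost in 5 of 14 alternatives, with endothelial centring (-0.33) and without tMCAO contralateral replicate 1 (-0.58) or 3 (-0.55) or tMCAO ipsilateral replicate 1 (-0.54) or 2 (-0.56), each at 24 h. Optn was called with endothelial centring (0.64, adjusted p 0.0211, limma). Fundc1 gave -0.47 ± 0.13 (adjusted p 0.0135, limma), below the limit on the fold change. Ppargc1a gave -0.74 ± 0.29 (adjusted p 0.0687, limma).
At 7 days Ppargc1a was the only member called, beside 13% of all genes. It had 135, 64 and 72 normalized counts in contralateral libraries, the first being the highest library of the series, and a log2 fold change of -1.78 ± 0.29 (adjusted p 0.000161, limma). The call held in all 14 alternatives, with values from -1.99 to -1.46. Contralateral replicate 1 at 7 days also had the highest summed neuron markers of the series, 24328 beside 8007 and 8530 in replicates 2 and 3. The same held for summed astrocyte markers, at 43745 beside 14906 and 17905.
Pink1 had 7410, 6045 and 7958 normalized counts in contralateral libraries at 7 days, each above the ipsilateral library of the same number (5847, 5266 and 6944). The groups overlapped, and the log2 fold change was -0.25 ± 0.13 (95% interval -0.52 to 0.02, adjusted p 0.237, limma). With the replicate number as a block the same value had an adjusted p of 0.0291 (limma), still below the limit on the fold change. Mfn2 gave -0.23 and, like Pink1, Dnm1l and Ppargc1a, was lower ipsilaterally in all 3 same-numbered pairs. The adjusted p of Mfn2 was 0.181 without and 0.0272 with the block (limma), also below the limit on the fold change. With the block, 3 of 10 members passed the adjusted p at 7 days, beside 3878 of 15982 genes. Pink1 stayed the only member called at 24 h (17.1% of all genes) and Ppargc1a at 7 days (15.3%). The labels do not say whether equal numbers mark the same mice. After tMCAO at 7 days, deviations of same-numbered libraries from their group means correlated at 0.06 to 0.31. Libraries of different numbers gave a mean of -0.07.

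Among the control groups no member was called regulated in any of 7 comparisons. Sham ipsilateral against sham contralateral libraries gave 0% of genes called at 24 h and 0% at 7 days, with 367 and 359 genes at an unadjusted p under 0.05 (limma). With the replicate number as a block, 0.00626% of genes were called at 24 h and 0% at 7 days, with 898 and 980 genes at an unadjusted p under 0.05 (limma), and again no member was called. Sqstm1 and Mfn1 were lower on the ipsilateral side in all 6 same-numbered sham pairs, by small amounts. How many of all genes had every pair in the same direction was not counted. Blocked log2 fold changes of Sqstm1 were -0.04 at 24 h and -0.06 at 7 days (adjusted p 0.952 and 0.932, limma), and those of Mfn1 were -0.05 and -0.13 (adjusted p 0.915 and 0.826, limma). Contralateral libraries after tMCAO against sham gave 0% at 24 h (405 genes unadjusted) and 0.0313% at 7 days. Between 7 days and 24 h, 0.476% were called in sham ipsilateral, 0.332% in sham contralateral and 0% in tMCAO contralateral libraries, the last with 2637 genes unadjusted. At an unadjusted p under 0.05, 1 member stood out between the sham hemispheres at 24 h and 2 between the times in tMCAO contralateral libraries.
The first of these was Ppargc1a, which was 0.72 log2 units higher in the ipsilateral sham hemisphere (adjusted p 1, limma). Its sham contralateral libraries at 24 h had 42, 35 and 61 normalized counts, values that overlapped with the 31 to 39 seen in stroke vessels at that time. The other 2 were Mfn2 (0.23) and Fis1 (0.27), each with an adjusted p of 0.3 (limma).

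Markers of other cell types moved with the members to different degrees. The log2 level of Ppargc1a correlated with the mean log2 level of the neuron markers at r = 0.92 over the 24 libraries and at r = 0.84 over the 18 control libraries (Pearson, a description, since the libraries share groups and preparation). The summed neuron markers were 7333 to 7778 in sham and 2501 to 3942 in tMCAO ipsilateral libraries at 24 h, and 7452 to 13566 and 1066 to 1651 at 7 days. All 10 neuron markers were above 0 in every library. Astrocyte and oligodendrocyte markers moved with Ppargc1a too, with r = 0.82 and r = 0.69 over all libraries and r = 0.71 and r = 0.72 over the control libraries. Of 6 astrocyte markers, 4 fell at 24 h and 2 at 7 days against sham ipsilateral libraries, with median log2 fold changes of -0.93 and -1.07. Of 8 oligodendrocyte markers, 2 fell at each time, with medians of -0.74 and -0.62. Summed astrocyte markers were 15534 to 21130 in sham and 8595 to 12892 in tMCAO libraries at 24 h, and 14130 to 28805 and 5892 to 8004 at 7 days. Summed oligodendrocyte markers overlapped between these groups, at 35728 to 68170 and 20873 to 50213 at 24 h and at 31139 to 75838 and 53903 to 71155 at 7 days. The part of RNA from neurons, astrocytes and oligodendrocytes in the decrease of Ppargc1a was not tested.
Pink1 correlated with the neuron markers at r = 0.45 over all libraries and at r = 0.49 over the control libraries. Neurons did not stand out among the marker sets. In the same order, r was 0.48 and 0.11 for endothelial, 0.44 and 0.44 for oligodendrocyte and 0.38 and 0.19 for astrocyte markers. It was -0.58 and -0.15 for T cell, -0.46 and -0.57 for proliferation, and -0.40 and -0.39 for microglia and macrophage markers. The summed neutrophil and monocyte markers were 298 to 1316 in sham and 3626 to 6955 in tMCAO ipsilateral libraries at 24 h, and r with Pink1 was -0.68 over all libraries and -0.12 over the control libraries. Endothelial markers summed to 398184 to 508969 in sham and 365972 to 420316 in tMCAO libraries at 24 h, where 2 of 10 fell. The part of neuronal, immune and endothelial RNA in the decrease of Pink1 was not tested beyond the endothelial centring given above.

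**Figure D4:**
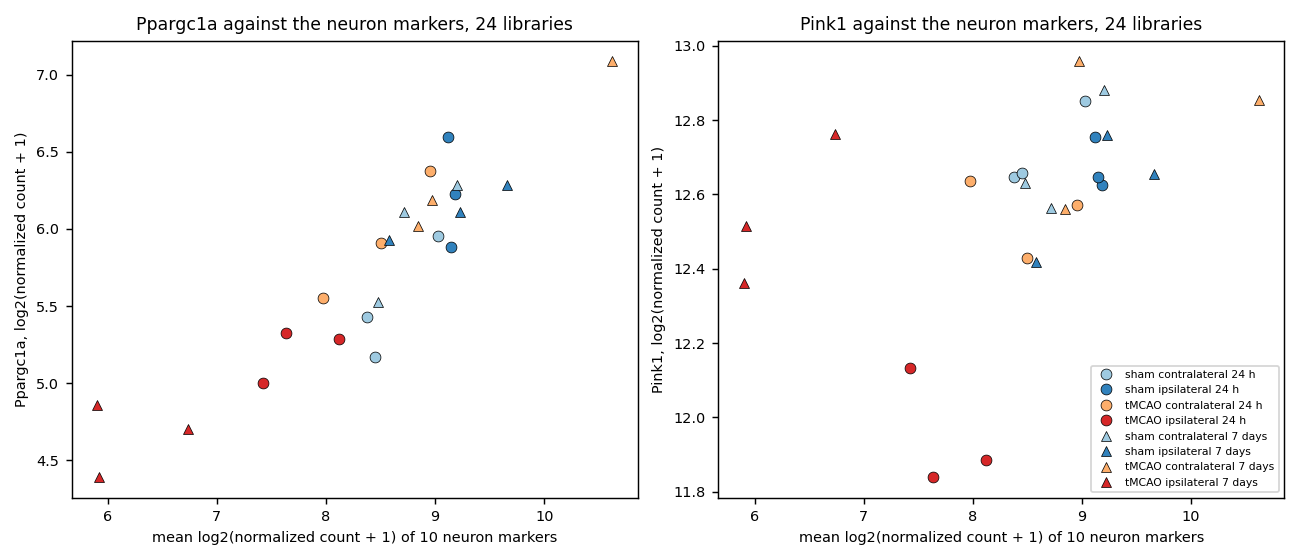
Log2(normalized count + 1) of Ppargc1a (left) and Pink1 (right) against the mean log2 level of 10 neuron markers in the 24 libraries. Circles are 24 h, triangles 7 days, and colours the surgery and hemisphere. The correlation is r = 0.92 for Ppargc1a and r = 0.45 for Pink1, and whether neuronal RNA has a part in either pattern was not tested.

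Genes most like a member over the 24 libraries were sought by Pearson correlation of log2 values. For Pink1 they were Mturn (0.92), Dennd5a (0.91) and Peg13 (0.91). For Sqstm1 they were Ddx28 (0.79), Nap1l4 (0.79) and Trappc5 (0.74), a weaker likeness. For Ppargc1a they were Spock1, Chd3os and Rtn1, each with 0.94. Among pairs of members the highest correlations were those of Pink1 with Fundc1 (0.74, and 0.51 within groups) and of Mfn1 with Opa1 (0.68, and 0.64 within groups). Others were negative, the lowest being Optn with Fundc1 (-0.71, and -0.61 within groups) and Dnm1l with Fis1 (-0.62, and -0.60 within groups). With the length trend of the libraries, r was -0.83 for Fis1, 0.44 for Dnm1l, 0.505 for Mfn1 and 0.65 for Opa1. It was 0.41 for Pink1, 0.23 for Fundc1 and 0.002 for Optn. The part of this trend in the correlations between members was not tested.

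Other genes of these pathways were taken from 3 lists with 85 genes beside the members, all tested. At 24 h 4 rose and 3 fell in tMCAO against sham ipsilateral libraries, which is 4.71% and 3.53% of them, beside 10% and 8.23% of all genes. At 7 days none rose and 1 fell (1.18%), beside 3.27% and 9.95% of all genes. The median log2 fold change of all 85 was -0.04 at 24 h and 0.04 at 7 days, beside -0.02 and 0.03 over all genes. The groups did not overlap for 43 genes at 24 h (50.6%, beside 49% of all genes) and for 15 at 7 days (17.6%, beside 30%). By adjusted p alone, 22 genes passed at 24 h (25.9%, beside 30.6%) and 7 at 7 days (8.24%, beside 16.9%). After correction for length and GC content, 3 of the 7 genes called at 24 h, Gdap1, Pprc1 and Ssbp1, were still called. Phb2 (0.51), Stoml2 (0.46), Miga1 (-0.46) and Sirt1 (-0.48) kept an adjusted p of at most 0.00846 (limma) but lay below the limit on the fold change, and Gabarapl1 (-0.67), an autophagosome protein named here after its values were seen, was called instead.

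Of 41 mitophagy and autophagy genes, 1 rose at 24 h. This was Phb2, prohibitin 2, an inner membrane protein that also serves as a mitophagy receptor, from 1323 ± 54.37 in sham to 2084 ± 110.4 normalized counts (SD, n = 3), a log2 fold change of 0.65 (adjusted p 7.08e-05, limma). None of the 41 was called at 7 days. Park2, the gene of Parkin on which PINK1 acts, was scarce with 28 to 35 normalized counts in sham and 20 to 37 in tMCAO libraries at 24 h (log2 fold change -0.28, adjusted p 0.484, limma). At 7 days it had 31 to 40 and 14 to 30 (-0.79, adjusted p 0.0629, limma), and against the contralateral hemisphere it fell (-1.05, adjusted p 0.0131, limma).

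Of 23 other dynamics genes, 1 rose and 2 fell at 24 h. Stoml2, an inner membrane scaffold protein, rose from 759.3 ± 49.52 to 1204 ± 49 normalized counts (log2 fold change 0.67, adjusted p 1.21e-05, limma). Miga1, mitoguardin 1, which promotes fusion, fell from 717.3 ± 54.37 to 463.3 ± 15.37 (-0.63, adjusted p 0.000547, limma). Gdap1, an outer membrane protein that promotes fission and is abundant in neurons, fell from 56 ± 6 to 21.33 ± 4.933 at 24 h (-1.37, adjusted p 0.00411, limma) and at 7 days from 53.33 ± 25.7 to 11 ± 1.732 (-2.09, adjusted p 0.000148, limma).

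Of 21 other biogenesis genes, 2 rose and 1 fell at 24 h and none was called at 7 days. Pprc1, a coactivator related to PGC-1α, rose from 409.7 ± 68.41 to 847 ± 124.5 normalized counts (log2 fold change 1.05, adjusted p 0.00151, limma), opposite in direction to Ppargc1a. Ssbp1, which binds single-stranded mitochondrial DNA, rose from 232 ± 24 to 361 ± 18.52 (0.64, adjusted p 0.000186, limma). Sirt1, a deacetylase that acts on PGC-1α, fell from 629.7 ± 38.55 to 421.7 ± 65.16 (-0.59, adjusted p 0.00415, limma).

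**Figure D5:**
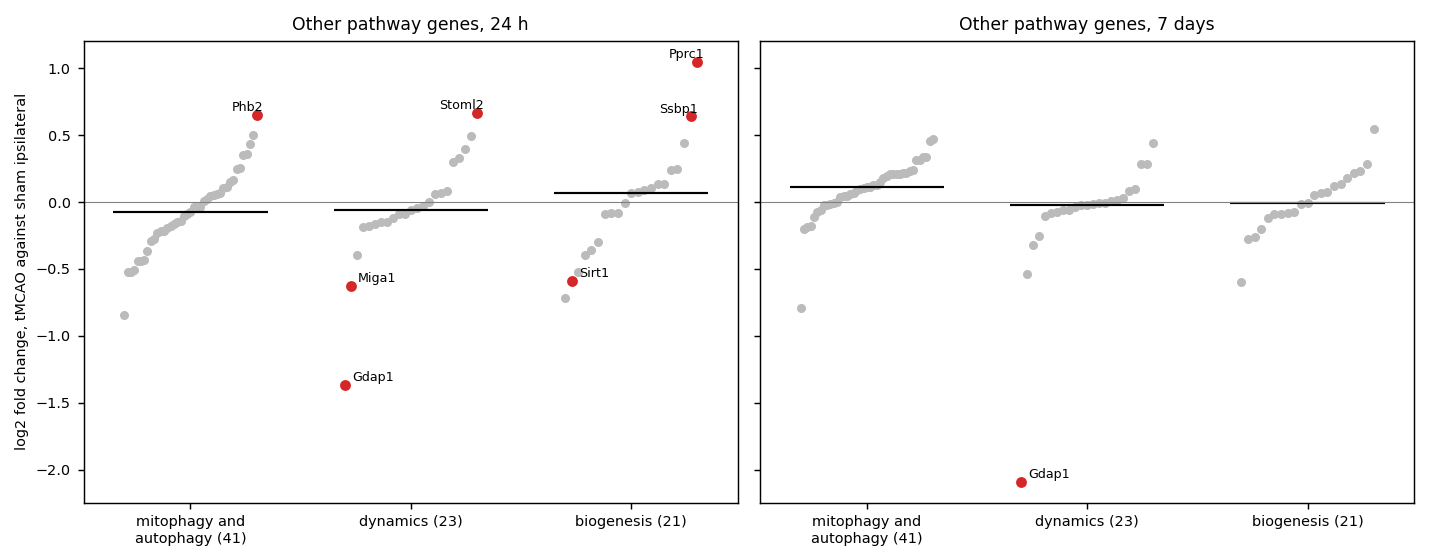
Log2 fold changes of the 85 other pathway genes in tMCAO against sham ipsilateral libraries at 24 h (left) and 7 days (right), by list. Each point is a gene, sorted within its list, red and named where called regulated, and the black line is the median of the list; 7 genes are red at 24 h and 1 at 7 days.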

How the data were processed

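Microvessel RNA of 24 libraries was sequenced. The authors trimmed reads, aligned them to mm10, excluded reads matching several genes and divided counts by a DESeq2 size factor per library. The submitters' processing notes name STAR 2.5.2b, featureCounts 1.5.1 and DESeq2 1.6.2. The deposited values are rounded to whole numbers and were treated as a score, so no count test was run.

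Log2 values after adding 1 were fitted in R 4.3.3 with limma 3.58.1 (mean-variance trend, all 8 groups) for 15982 genes with a mean above 5, with Benjamini-Hochberg adjustment over all of them. The fit was tested on simulated data. In the main fit p-values rest on a spread per gene between the pools within groups, shared over all 8 groups of 3 libraries. Hemispheres that may come from the same mice were counted there as independent. Transcript lengths and GC content came from GENCODE annotation of GRCm38, for 99.9% of genes, and promoters from RefSeq GRCm38.p6. Python 3.11.15, numpy 2.4.6, pandas 2.3.3 and matplotlib 3.10.9 were used.

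Depth, here the reads assigned to the deposited genes, was estimated from size factors recovered from values that are skipped or doubled among low values. Earlier versions of this estimate passed simulations but set several libraries wrongly near a factor of 1, and the fourth version was used. It accounted for 47 of 47 skipped and 27 of 29 doubled values, and 2 libraries had none to check. The factors were fitted to the same low values, so this count is not an independent check. No test used these estimates.

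Same-numbered hemispheres of a surgery and time were taken as possible pairs. Their deviations correlated above 0.1 in every pair for sham hemispheres at 24 h (0.15 to 0.41) and 7 days (0.33 to 0.47). After tMCAO the correlations were positive in every pair but not always above 0.1. They ranged from 0.07 to 0.36 at 24 h and from 0.06 to 0.31 at 7 days. The main fit has no block. Genes outside the members are named where called, up to 4 per direction, list and time, with Park2 and, for Pink1, Sqstm1 and Ppargc1a, the 3 genes most alike. Members, lists and tests were chosen with earlier results of these data known. Alternatives were pseudocount 0.5, no filter, a minimum mean of 20, centring on the median or the endothelial markers, a replicate block, only the compared groups, no limit on the fold change, a length and GC correction, and each library left out.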

Additional observations from a re-analysis of the deposited data

Results flagged for a closer look

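The stroke effect on Pink1 differed between the time points in a test of the difference itself. The log2 fold change of tMCAO against sham ipsilateral libraries was -0.72 at 24 h and -0.06 at 7 days, and the difference was 0.659 (SE 0.18, adjusted p 0.0266, limma). Over 20 alternatives it ranged from 0.35 to 0.76, with adjusted p from 0.0101 to 0.259 (limma), and 14 of them kept the call.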

How the results depend on the processing

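Pink1 at 24 h and Ppargc1a at 7 days against sham were called under all alternatives. Members regulated against sham at 24 h, 2, came to 3 without a limit on the fold change, by the addition of Fundc1. They came to 1 with the length and GC correction and to 1 to 2 with a library left out. Against the contralateral hemisphere at 24 h, 1 became 2 with median centring and without a limit on the fold change, and 0 to 1 with a library left out. Between the times in the stroke hemisphere, 1 became 2 with endothelial centring and 0 to 1 with a library left out. For the difference of the stroke effects, 1 became 0 with endothelial centring and 0 to 1 with a library left out. The 7 pathway genes at 24 h became 22 without a limit and 4 with the length and GC correction, 3 of them among the 7. The 1 pathway gene at 7 days became 2 with median centring, 2 with endothelial centring, 7 without a limit, 3 with the length and GC correction and 1 to 3 with a library left out. The causes were not tested.

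Values that were not called changed sign. With endothelial centring, which shifts all genes by 0.132 at 24 h and -0.176 at 7 days, log2 fold changes at 24 h were 0.123 for Dnm1l, 0.031 for Mfn1, 0.02 for Mfn2 and 0.02 for Opa1, and at 7 days -0.163 for Mfn1 and -0.16 for Optn. With the length and GC correction they were 0.066 for Dnm1l, -0.066 for Fis1, 0.031 for Mfn1 and 0.141 for Opa1 at 24 h, and 0.063 for Opa1 and -0.057 for Optn at 7 days. With a library left out, values ranged at 24 h from -0.097 to 0.055 for Dnm1l and -0.011 to 0.29 for Sqstm1. At 7 days they ranged from -0.041 to 0.076 for Mfn1, -0.145 to 0.007 for Opa1, -0.08 to 0.173 for Optn, -0.172 to 0.027 for Pink1 and -0.161 to 0.05 for Sqstm1.

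With the replicate block the same members were called in every comparison, with 2 regulated against sham at 24 h and 1 at 7 days. All 15 counts of regulated members and pathway genes stayed equal to those of the main fit or within 1.5-fold of them. Between hemispheres of the same surgery and time the block was the possible pool of mice. In the other comparisons, such as tMCAO against sham, equal numbers belong to different mice. The counts there are no check of pairing. Ppargc1a and Park2 had low values, at 20 to 135 and 14 to 53 normalized counts over the 24 libraries.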
